A study of Mus musculus with 15 samples.

Results

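The livers described here expressed luciferase, a light-producing enzyme that serves as the control construct of the study, and came from mice that received either ethanol or water by gavage. Liver RNA was taken 6 h after the gavage. The members are the 8 luciferase libraries among the 15 libraries of the series, chosen by the group names in the header of the deposited table: 5 given water (M1 to M5) and 3 given ethanol (M10 to M12). Of 16330 genes listed, the 13570 with a normalized count of 10 or more in at least 3 of the 15 libraries were tested. The remaining 7 libraries carry LbNOX, a bacterial enzyme that oxidizes NADH to NAD+ with oxygen, after water (4 libraries) or ethanol (3 libraries). They entered the same fit, and their values are given where they bear on a gene. The labels give neither strain, age, sex nor ethanol dose, and do not say how the constructs were delivered or which liver cells carried them. GEO's design text describes wild type and ChREBP mice, but the titles and header give luciferase and LbNOX, so the ChREBP genotype of these animals is not settled. The question is what ethanol changed in livers with the control construct. The best-known ChREBP and lipogenic genes (44 tested, 29 called higher and 1 lower) are left aside, and the text covers the other genes.

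Ethanol is oxidized in hepatocytes by alcohol dehydrogenase and then by aldehyde dehydrogenase, and both reactions reduce NAD+ to NADH. A high NADH to NAD+ ratio, called reductive stress, slows reactions that need NAD+ and changes the flow of glycerol phosphate, lactate and malate. ChREBP is a transcription factor that responds to sugar phosphates and binds pairs of E-box motifs near genes of glycolysis and fat synthesis. The liver also holds macrophages, endothelial, stellate and lymphoid cells. In bulk RNA, fewer cells of a type and less RNA per cell cannot be told apart.

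Depth recovered from the table was 14535384 to 23714943 reads in the water libraries and 12236681 to 14366399 in the ethanol libraries. Hepatocyte markers (10 of 10 tested, among them albumin) summed to 955583 to 1165100 normalized counts after water and 995648 to 1227900 after ethanol, so the tissue label held in every library. The water library M3 stood apart: its pancreas markers summed to 1789 normalized counts against 79.8 to 235 in the other water libraries and 72.6 to 412 after ethanol. Whether each library is 1 animal is not in the labels. The p-values therefore cover only the spread among these samples, which may be technical. Log2 fold changes are differences of log2 (normalized count + 1), which understates the change of low genes. Each call was repeated in 8 fits that each left out 1 luciferase library. A call lost in any of them is marked with the number of fits that lost it and the highest adjusted p among them.

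The calls after ethanol included rises of genes with few reads in the water livers and of some solute carriers and amino acid genes, and falls of many interferon-responsive genes. With an adjusted p below 0.05 in limma, 1052 of 13570 genes were called (7.75%), 627 higher (4.62%) and 425 lower (3.13%). Outside the genes left aside, 598 rose and 424 fell. The median log2 fold change was 0.01 over all genes tested, 1.00 among genes called higher and -0.89 among those called lower. Changes over 2-fold made up 485 of the calls, 316 higher and 169 lower. In the 8 fits that left out a library, 387 genes kept their call throughout, 278 higher and 109 lower. Leaving out M3 gave 893 calls, 560 higher and 333 lower. Leaving out M10 gave 467 calls and leaving out M12 gave 636, so the count moved by more than 1.5 times with either of these ethanol libraries. Without M11 the genes called lower numbered 268.

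**Figure D1:**
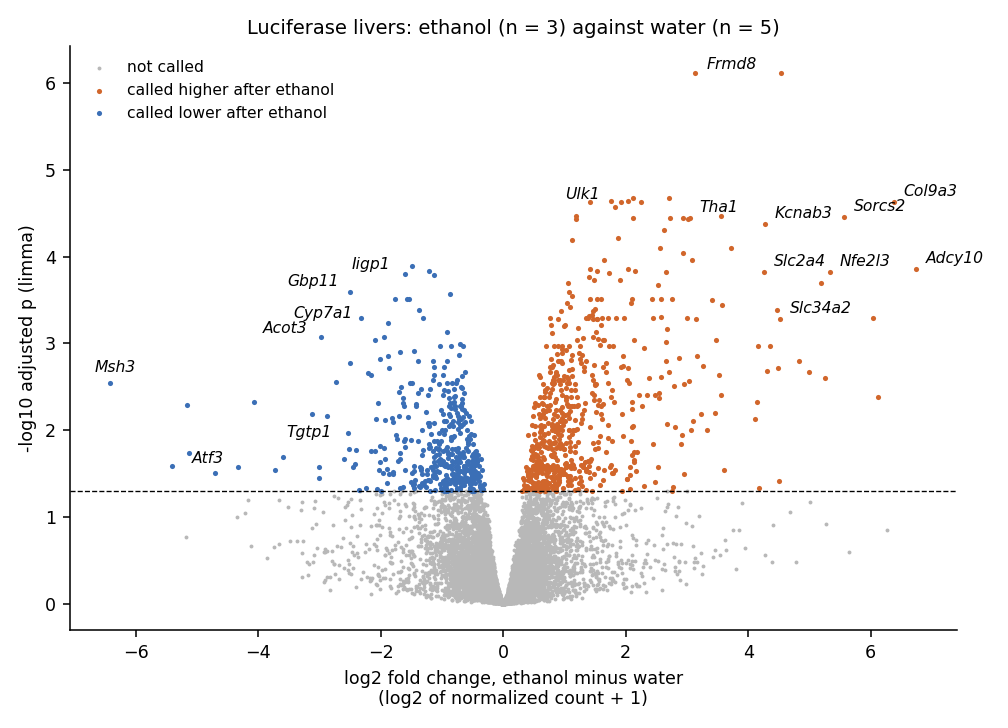
Each point is a gene in the luciferase livers, with its log2 fold change (ethanol minus water, on log2 of normalized count + 1) on the x axis and -log10 of limma's adjusted p on the y axis; the dashed line marks an adjusted p of 0.05. Orange points (627) were called higher and blue points (425) lower; Adcy10 at 6.74 has the largest labelled rise and Msh3, listed at 0 in all 3 ethanol libraries, lies farthest to the left.

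The largest rises were in genes with few reads after water. Of 45 genes called higher by more than 8-fold, 41 had a water mean under 100 normalized counts and 25 under 10. Over all genes called higher, 41 had a water mean under 10. The filter sets part of these counts: 21 of the 45 genes, 20 of them with a water mean under 10, reached 10 in fewer than 3 libraries outside the luciferase ethanol group, so they were tested only because they were high there. In a fit of all listed genes with no filter, all 28 such genes among the 627 called higher were called. For those named here (Adcy10, Col9a3, Sorcs2, Nfe2l3, Wisp2 and Cabp2) the adjusted p of that unfiltered fit is given. Adcy10 encodes the soluble adenylyl cyclase, which makes cAMP in response to bicarbonate. It measured 8.39, 2.73, 0.831, 7.04 and 3.00 normalized counts in the 5 water libraries, in the order M1 to M5, and 710, 289 and 580 in the ethanol libraries M10 to M12. All 3 ethanol libraries lay far above every water library, and none of the 12 other libraries of the series reached 10 (log2 fold change 6.74, SE 0.77, unfiltered adjusted p = 9.08e-05).

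Col9a3, which encodes a chain of the cartilage collagen IX, measured 2.40, 7.27, 2.49, 2.35 and 0.999 after water and 237, 255 and 462 after ethanol. The groups did not overlap (log2 fold change 6.38, SE 0.57, unfiltered adjusted p = 1.65e-05). Its partner chain Col9a2 rose by 3.11 (SE 0.64, adjusted p = 0.00795), from 0.831 to 19.1 after water to 36.1 to 70.2 after ethanol, a call lost in 1 of 8 fits (0.0579 without M10). These were the 2 called members among 53 collagen and matrix genes tested, against 4.62% of all genes called higher. The median log2 fold change of that list was -0.10. Col9a3 is among the 53 only because it was high in the luciferase ethanol libraries, so the count leans upward. The annotated span of Col9a3 overlaps that of Tcfl5, so reads in the shared part cannot be assigned with certainty.

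Sorcs2, a sortilin-family receptor, measured 8.39, 9.09, 6.65, 16.4 and 7.996 after water and 418, 308 and 875 after ethanol. Nfe2l3, a basic leucine zipper factor related to NRF2, measured 1.80, 0.909, 6.65, 5.86 and 3.00 after water and 209, 61.8 and 332 after ethanol. Both groups of ethanol values stood clear of the water values, with log2 fold changes of 5.56 (SE 0.53, unfiltered adjusted p = 2.75e-05) for Sorcs2 and 5.33 (SE 0.62, unfiltered adjusted p = 0.000108) for Nfe2l3. Kcnab3, a beta subunit of voltage-gated potassium channels, rose from 3.64 to 12.9 after water to 113 to 221 after ethanol (log2 fold change 4.28, adjusted p = 4.21e-05). The secreted CCN-family protein Wisp2 rose from 0.909 to 6.00 to 57.1 to 160 (4.47, unfiltered adjusted p = 0.000307).

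The 25 largest rises with a mean of at least 100 after ethanol were chosen by their fold change in these libraries, so how far their groups stand apart is a description; 7 of them passed the filter only through the ethanol libraries. The groups overlapped in 1 of the 25, Cabp2, a calcium-binding protein, which measured 0, 107, 0, 4.69 and 3.00 after water and 57.1 to 157 after ethanol. Its call (log2 fold change 4.51, unfiltered adjusted p = 0.0399) was lost in 7 of 8 fits (up to 0.154 without M10). The muscle genes Xirp1 (4.80 to 16.6 after water, 111 to 215 after ethanol) and Myh8 (4.69 to 26.4 against 112 to 169) were on this list too, as were Noxo1, an organizer of NADPH oxidase (4.16 to 18.0 against 111 to 155), and Hormad2, a meiotic chromosome protein (10.8 to 17.0 against 118 to 202). The annotated spans of Xirp1, Noxo1 and Sorcs2 overlap those of Cx3cr1, Tbl3 and Psapl1, and reads in the shared parts cannot be assigned with certainty. Bhlha15, a transcription factor of secretory cells, measured 7.996 to 17.5 after water and 221, 37.3 and 157 after ethanol. No pancreas marker was called (12 tested). Their median log2 fold change was 0.51 (1.58 without M3), with 10 of 12 above 0. They summed to 72.6 in M10, 412 in M11 and 259 in M12, against 79.8 to 235 in the water libraries other than M3. The part of pancreatic RNA in these rises was not tested. Bile duct markers had a median log2 fold change of 1.02 (1.11 without M3), with 5 of 7 above 0. Cftr is among the 7 only because it was high in ethanol libraries, so the median and the count lean upward. Pkhd1 was called among them (1.02, lost in 4 of 8 fits, up to 0.164 without M10), while Cftr (2.68, unfiltered adjusted p = 0.0585) and Krt19 (1.90, adjusted p = 0.132) were not. Krt19 measured 231, 24.5 and 107 after ethanol against 10.9 to 42.6 after water. The bile duct marker sum was 1256 to 1622 after ethanol and 1051 to 2037 after water. Fat cell markers had a median of 0.48 with 0 of 5 called. The part of these cells was not tested either.

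**Figure D2:**
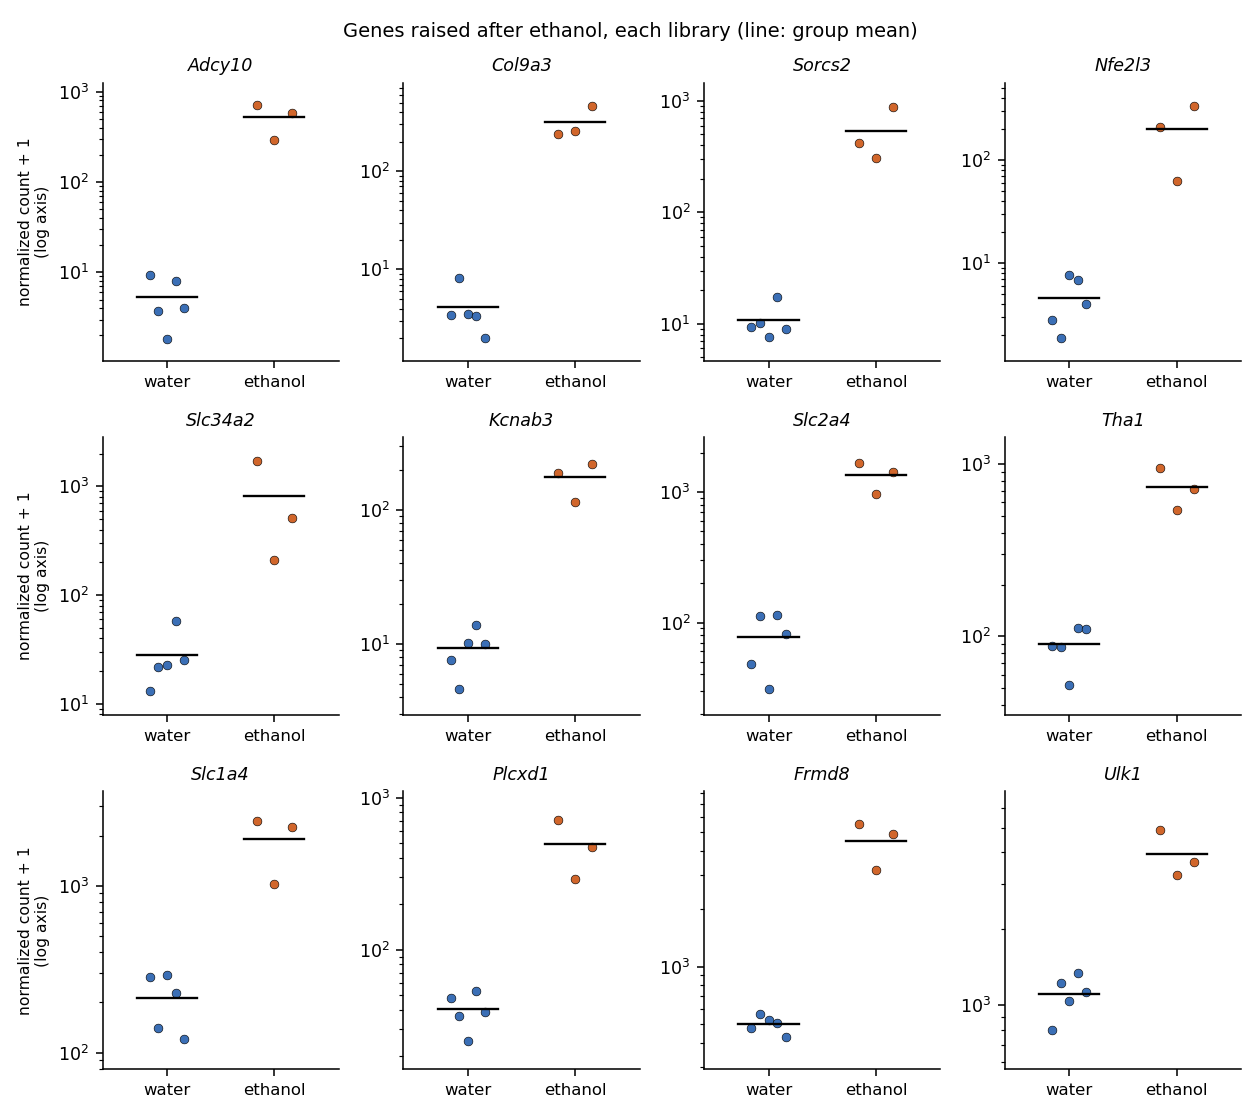
Normalized count + 1 (log axis) of 12 genes called higher, with the water libraries (blue, n = 5) and ethanol libraries (orange, n = 3) as points and the group mean as a line. In every panel the ethanol points lie above all water points; Frmd8 runs from 431 to 563 after water and 3159 to 5511 after ethanol.

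Some of the best-separated rises were in genes with ample reads after water. Frmd8 encodes a FERM-domain protein that stabilizes the iRhom and ADAM17 sheddase complex. It measured 476, 563, 529, 507 and 431 after water and 5511, 3159 and 4887 after ethanol, with the highest water library below the lowest ethanol library by more than 5-fold. Its log2 fold change was 3.14 (SE 0.19, adjusted p = 7.6e-07), and the highest adjusted p in the 8 fits was 2.26e-05. Ulk1, the kinase that starts autophagy, measured 795, 1223, 1036, 1336 and 1130 after water and 4885, 3246 and 3673 after ethanol. This rise of 1.83 (SE 0.17, adjusted p = 2.66e-05) was the single call among 32 autophagy and lysosome genes tested, against 7.75% of all genes. The median of that list was 0.11.

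Ncoa1, a coactivator of nuclear receptors, rose from 469 to 743 after water to 1614 to 2653 after ethanol (log2 fold change 2.03, SE 0.18, adjusted p = 2.28e-05). The pyrophosphate transporter Ank rose from 340 to 496 to 1485 to 2349 (2.13, SE 0.18, adjusted p = 2.1e-05). Nudt4, a diphosphoinositol polyphosphate hydrolase, was the most abundant of the genes of smallest p: it measured 4455, 4514, 3870, 4317 and 4706 after water and 14164, 9430 and 11663 after ethanol (1.41, SE 0.13, adjusted p = 2.35e-05). Tbc1d31, Cdcp1, Fgfrl1 and Hpcal1 completed that set, with log2 fold changes of 2.26, 1.92, 1.77 and 1.19. None of these 8 genes (Frmd8, Ncoa1, Ank, Nudt4, Tbc1d31, Cdcp1, Fgfrl1 and Hpcal1) had overlapping groups. They were chosen by their p in these libraries, so this separation is a description. Over all genes tested, 8.32% had every ethanol library above every water library.

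The ethanol libraries differed among themselves. M11 was the lowest of the 3 in 441 of the 627 genes called higher, and M10 the lowest in 249 of the 425 genes called lower. M11 therefore held the smaller rises and M10 the deeper falls in most called genes. Slc34a2 gives the widest example among the large rises, with 1709 in M10, 208 in M11 and 512 in M12.

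Membrane transporters of sugars, phosphate and metals were among the genes that rose. Of 52 sugar and other small-solute transporters tested, 9 were called higher (4.62% of all genes) and 4 lower (3.13% of all genes), with a median of 0.11. Slc2a4 encodes GLUT4, the insulin-responsive glucose transporter of muscle and fat. It measured 47.4, 111, 29.9, 114 and 79.96 after water and 1663, 962 and 1421 after ethanol, so every ethanol library was more than 8 times the highest water library (log2 fold change 4.26, SE 0.49, adjusted p = 0.00015). Slc2a1, which encodes the widespread transporter GLUT1, measured 388, 498, 493, 294 and 287 after water and 123, 324 and 186 after ethanol, with M11 inside the water range (-0.96, adjusted p = 0.0497, lost in 5 of 8 fits, up to 0.271 without M10).

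Slc34a2, a sodium-phosphate cotransporter, measured 11.99 to 56.3 after water (log2 fold change 4.52, SE 0.62, adjusted p = 0.000527). The manganese exporter Slc30a10 measured 102, 130, 162, 555 and 275 after water and 2051, 894 and 970 after ethanol (2.58, SE 0.44, adjusted p = 0.00243). The sodium-glucose cotransporter Slc5a1 rose from 18.3 to 30.6 to 70.0 to 160 (2.30, adjusted p = 0.00112). Slc45a3 rose by 1.53 and the nucleoside transporter Slc29a1 by 0.62, and both calls held in all 8 fits. The citrate transporter gene Slc13a2 (2.11, lost in 2 of 8 fits, up to 0.109 without M10) and the glucose-6-phosphate translocase gene Slc37a4 (1.26, lost in 6 of 8 fits, up to 0.134 without M10) were less stable, and the phosphate transporter Slc20a2 rose by 0.37 (lost in 2 of 8 fits, up to 0.133 without M10). Downward, the aquaglyceroporin Aqp3 fell by 1.92, from 10.9 to 30.5 to 2.33 to 4.84, and Slc16a12 fell by 0.67, from 1592 to 2033 to 1028 to 1211. The zinc importer Slc39a4 fell by 0.65 (lost in 2 of 8 fits, up to 0.158 without M10).

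Mitochondrial carriers, which move metabolites and cofactors across the inner membrane, had 9 members called higher and 2 lower among 37 tested, against 4.62% and 3.13% of all genes, with a median of 0.27. The liver-restricted carrier Slc25a47 measured 4485, 5205, 3763, 6625 and 8530 after water and 13638, 14183 and 13356 after ethanol. The ethanol libraries were close together and all above the water range (log2 fold change 1.32, SE 0.26, adjusted p = 0.00588). Slc25a51 encodes the mitochondrial NAD+ carrier. It measured 2027, 2138, 1336, 2545 and 2503 after water and 4091, 5717 and 4522 after ethanol (1.2, SE 0.25, adjusted p = 0.00959). Slc25a44, a carrier of branched-chain amino acids, rose by 1.02 (SE 0.19, adjusted p = 0.00413). These 3 kept the call in all 8 fits.

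The folate and FAD carrier Slc25a32 (1.14, lost in 1 of 8 fits, 0.0661 without M10), Slc25a48 (1.07, 1 of 8, 0.0606 without M10) and the pyrimidine nucleotide carrier Slc25a33 (0.83, 1 of 8, 0.0632 without M10) rose as well. The oxoglutarate carrier Slc25a11 (0.55, 7 of 8, up to 0.15 without M10) and the ornithine carrier Slc25a15 (0.51, 6 of 8, up to 0.18 without M11) rose too. Slc25a30 fell by 0.97 (1 of 8, 0.0512 without M12) and the peroxisomal Slc25a17 by 0.32 (5 of 8, up to 0.2 without M10). Without M3 the carriers called higher numbered 6, and without M10 they numbered 3. The other called genes of NADH shuttles and NAD metabolism were Gpd2, the mitochondrial glycerol-phosphate dehydrogenase, which rose by 0.98 (adjusted p = 0.00264) from 1239 to 2071 to 2904 to 3376, Got1, described with the amino acid genes, and Nampt, the salvage enzyme of NAD synthesis, which fell by 0.55 (lost in 1 of 8 fits, 0.0854 without M10).

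Some genes that handle amino acids rose. Of 63 genes of amino acid catabolism and the urea cycle tested, 7 were called higher (4.62% of all genes) and 0 lower, with a median of 0.20 and 16 below 0. Without M10 the genes called higher numbered 3, without M11 4 and in a fit of the luciferase groups alone 4, and quantile normalization called 1 lower. Of 29 amino acid transporters, 3 were called higher (4.62% of all genes) and 0 lower (3.13% of all genes), with a median of 0.21. Tha1, threonine aldolase, which splits threonine into glycine and acetaldehyde, measured 87.5, 85.4, 51.5, 110 and 110 after water and 953, 538 and 717 after ethanol. The lowest ethanol library was above the highest water library by more than 4-fold (log2 fold change 3.04, SE 0.30, adjusted p = 3.6e-05).

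Slc1a4, which encodes the neutral amino acid transporter ASCT1, measured 283, 140, 292, 228 and 119 after water and 2432, 1019 and 2240 after ethanol. The ranges were well apart (3.15, SE 0.44, adjusted p = 0.000527). Slc38a2, the glutamine and alanine transporter SNAT2, rose from 2555 to 3491 to 4997 to 6372 (0.96, adjusted p = 0.00733). The glycine transporter Slc6a9 rose by 0.97 (lost in 1 of 8 fits, 0.0523 without M12). The transporters Slc7a11 (-0.48, adjusted p = 0.547), Slc7a1 (0.82, adjusted p = 0.382) and Slc7a5 (0.19, adjusted p = 0.803) were not called.

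Got1, the cytosolic aspartate aminotransferase of the malate-aspartate shuttle, measured 2420, 2937, 1407, 1756 and 3403 after water and 5042, 7283 and 4477 after ethanol (1.27, SE 0.26, adjusted p = 0.00831). Bckdk, the kinase that switches off branched-chain keto acid oxidation, rose by 0.89 (SE 0.14, adjusted p = 0.00159). Tat, the tyrosine aminotransferase, rose by 1.10 and measured 10408, 18274 and 7078 after ethanol against 4362 to 6538 after water (lost in 2 of 8 fits, up to 0.11 without M11). Hgd (0.81, lost in 4 of 8 fits, up to 0.126 without M10) and Amt (0.58, lost in 1 of 8 fits, 0.11 without M10) act in tyrosine and glycine breakdown.

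Several genes known from the integrated stress response, a program that amino acid shortage and other stresses start through ATF4, rose, while others did not. Of 32 tested, 4 were called higher (4.62% of all genes) and 1 lower (3.13% of all genes), with a median of 0.34. The lower call was Atf3, given below with the genes listed at 0 (lost in 4 of 8 fits, up to 0.162 without M10). Trib3, a pseudokinase that inhibits AKT, measured 131, 115, 106, 114 and 99.9 after water and 564, 253 and 537 after ethanol (1.91, SE 0.23, adjusted p = 0.000188). Chac1, which degrades glutathione, rose by 1.59 (SE 0.31, adjusted p = 0.00524), and Ddit4, an inhibitor of mTORC1, rose from 280 to 420 to 916 to 1290 (1.65, SE 0.18, adjusted p = 0.000108). The hormone gene Fgf21, also on the list left aside, rose by 1.81. Atf4 itself measured 983 to 1474 after water and 1340 to 2132 after ethanol (0.41, adjusted p = 0.202), and Asns (1.2, adjusted p = 0.241), Psat1 (0.66, adjusted p = 0.514), Phgdh (0.56, adjusted p = 0.748) and Ddit3 (0.14, adjusted p = 0.837) were not called. Among 24 aminoacyl-tRNA synthetases there was a single call, against 7.75% of all genes. It was Tars, the threonine synthetase, which rose from 1261 to 1719 to 2634 to 3569 (1.07, SE 0.13, adjusted p = 0.000257).

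Genes known to respond to glucocorticoids were called in 1 direction. Of 27 tested, 9 were called higher (4.62% of all genes) and 0 lower, the median was 0.72, and in 14 all ethanol libraries lay above all water libraries (8.32% of all genes). Dusp1, a phosphatase of MAP kinases, measured 560, 856, 304, 448 and 515 after water and 1955, 1832 and 2048 after ethanol (1.93, SE 0.39, adjusted p = 0.00653). Its annotated span overlaps that of Ergic1. Igfbp1, a binding protein of insulin-like growth factors that insulin lowers, measured 234, 339, 366, 155 and 220 after water and 1335, 2162 and 557 after ethanol (2.22, SE 0.41, adjusted p = 0.00392). M12 was the lowest ethanol library for Igfbp1 and still above all water libraries.

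Gadd45b rose by 1.2 and Ddit4 by 1.65, and with Dusp1 and Igfbp1 they kept the call in all 8 fits. Zbtb16 (1.56, lost in 1 of 8 fits, 0.0914 without M10), Gadd45a (1.12, 1 of 8, 0.0843 without M10), Tat, Klf15 (0.91, 6 of 8, up to 0.176 without M10) and Tsc22d3 (0.91, 6 of 8, up to 0.142 without M10) were the other calls. The glucocorticoid-induced genes Fkbp5 (0.57, adjusted p = 0.141), Per1 (0.39, adjusted p = 0.411) and Sgk1 (1.10, adjusted p = 0.054) missed the threshold. Leaving out M3 gave 7 calls on the list and leaving out M10 gave 4.

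Of 30 insulin and FoxO genes tested, 3 were called higher and 1 lower (4.62% and 3.13% of all genes), with a median of 0.02. Foxo1 rose by 0.64 (lost in 2 of 8 fits, up to 0.0897 without M10), beside Igfbp1 and Trib3, and Igfals fell by 1.13 (lost in 1 of 8 fits, 0.139 without M10). Pck1, which insulin lowers, measured 7773 to 16728 after water and 6502 to 16433 after ethanol (-0.18, adjusted p = 0.833), and Irs2 was not called (-0.04, adjusted p = 0.975).

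Of 29 genes of cAMP and glucagon signalling, 5 were called higher (4.62% of all genes) and 0 lower (3.13% of all genes). Their median was 0.11, and 3 were called without M10 or without M12. Adcy10 is among the 29 only because it was high in the luciferase ethanol libraries, so the median and the count lean upward. Beside Adcy10 the 5 were the adenylyl cyclases Adcy9 (1.07, SE 0.19, adjusted p = 0.00289) and Adcy5 (1.3, lost in 4 of 8 fits, up to 0.114 without M10), the adenosine A1 receptor Adora1, and Rgs16, which shortens signals through inhibitory G proteins. Adora1 measured 1831, 1910, 1287, 2096 and 1460 after water and 3192, 3300 and 3810 after ethanol (1.02, SE 0.16, adjusted p = 0.0012). Rgs16 measured 749, 1556, 232, 1083 and 1316 after water and 6918, 5678 and 6694 after ethanol, a log2 rise of 2.95 (SE 0.77, adjusted p = 0.0322) that was lost in 5 of 8 fits (up to 0.116 without M10).

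Of 24 clock genes, 3 were called higher and 2 lower (4.62% and 3.13% of all genes), with a median of 0.22; 1 was called higher without M10. Hlf, a transcription factor of the clock output, rose from 828 to 1533 to 2458 to 3175 (1.24, SE 0.19, adjusted p = 0.0013), while its relative Dbp fell from 479 to 1125 to 81.1 to 295 (-1.90, adjusted p = 0.0278, lost in 4 of 8 fits, up to 0.165 without M10). Npas2, a partner of BMAL1, measured 3.00 to 14.1 after water and 146, 18.7 and 53.6 after ethanol (2.92, lost in 1 of 8 fits, 0.0913 without M10). Bhlhe40 rose by 0.92 and Nr1d2 fell by 0.51, lost in 5 and 4 of 8 fits. Among immediate early genes Maff, a small MAF factor, rose from 38.4 to 68.2 to 278 to 413 (2.57, SE 0.27, adjusted p = 7.89e-05), while Fos (0.65, adjusted p = 0.49) and Egr1 (0.87, adjusted p = 0.516) were not called.

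Of 35 hormone and growth factor genes tested, 4 were called higher (4.62% of all genes) and 2 lower (3.13% of all genes); the lower ones were Igfals, given above, and Manf (-0.81). Inhba, the subunit of activin A, measured 248, 164, 273, 317 and 362 after water and 1680, 668 and 966 after ethanol (1.96, SE 0.31, adjusted p = 0.0014). Nrg4, an ErbB4 ligand, rose from 464 to 653 to 1228 to 1483 (1.25, SE 0.19, adjusted p = 0.00107). Its annotated span overlaps that of Fbxo22.

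**Figure D3:**
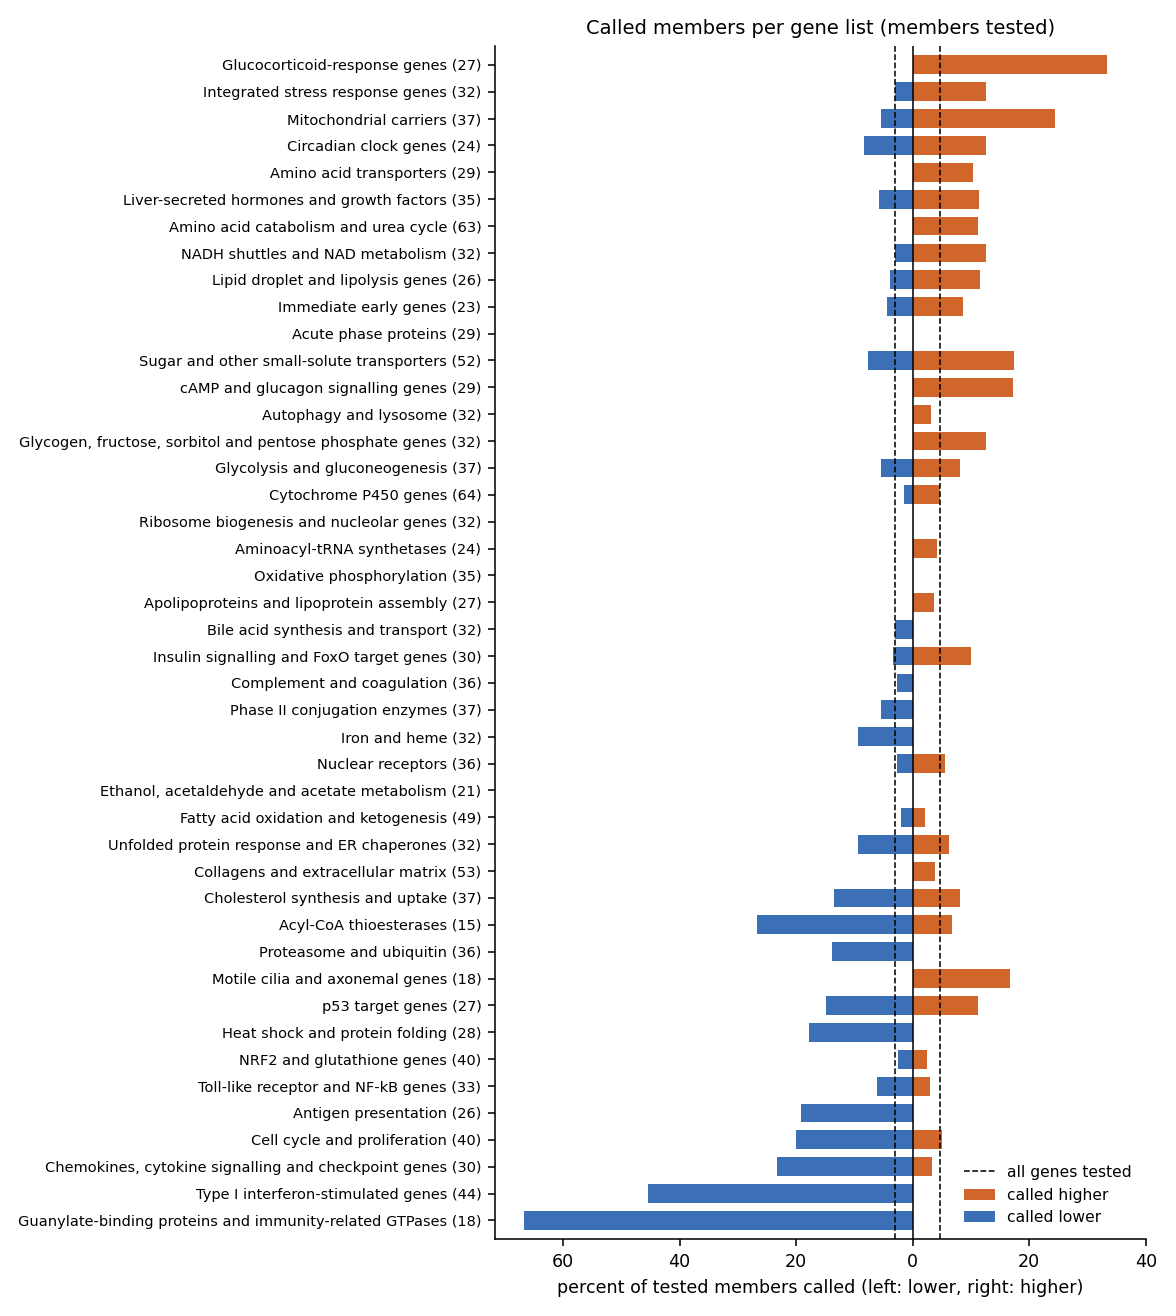
For each of 44 response lists (members tested in brackets), the bars give the percent of tested members called lower (blue, left) and higher (orange, right), and the dashed lines mark the percent over all genes tested, 3.13 lower and 4.62 higher; lists are ordered by their median log2 fold change. The guanylate-binding and immunity-related GTPases reach farthest to the left with 12 of 18 called lower, and the glucocorticoid-response genes farthest to the right with 9 of 27 called higher.

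Genes of lipid handling were called in both directions. Of 15 acyl-CoA thioesterases, which release fatty acids from CoA, 1 was called higher (4.62% of all genes) and 4 lower (3.13% of all genes). Acot11, also known as a thioesterase of brown fat, measured 146, 188, 63.2, 327 and 122 after water and 1392, 837 and 1300 after ethanol (2.95, SE 0.52, adjusted p = 0.00294). Its annotated span overlaps that of Fam151a, which rose too (3.53, SE 0.60, adjusted p = 0.0023), and reads of the 2 genes cannot be told apart in the shared part. Acot3 measured 830, 444, 393, 1349 and 1851 after water and 87.1, 147 and 84.8 after ethanol. All ethanol libraries lay below all water libraries (-2.98, SE 0.43, adjusted p = 0.000852).

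The neighbouring genes Acot2 (-1.69, adjusted p = 0.00368) and Acot4 (-1.26, adjusted p = 0.00614) fell too, and Acot1 fell by 1.02 (lost in 6 of 8 fits, up to 0.224 without M12). These 4 lie between 83987861 and 84060402 on chromosome 12 (GRCm38) and are close in sequence, so the counting could split reads between them. Acot12 (0.05), Acot13 (0.07) and Acot8 (-0.05) were not called (adjusted p = 0.93, 0.889 and 0.93).

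Perilipins, which coat lipid droplets, were called in both directions. Plin5, which ties droplets to mitochondria, measured 1291, 998, 643, 1305 and 965 after water and 3020, 2832 and 2673 after ethanol (1.49, SE 0.20, adjusted p = 0.0004). Plin3 rose by 1.09 (SE 0.14, adjusted p = 0.000386). Plin2, the most abundant of them, measured 15407, 12527, 12690, 14179 and 10958 after water and 5832, 9397 and 7970 after ethanol (-0.78, SE 0.15, adjusted p = 0.0057). Every ethanol library was above the water range for Plin3 and Plin5 and below it for Plin2. Pparg, the nuclear receptor of fat storage, rose by 1.06 (SE 0.20, adjusted p = 0.00526), and Mogat2, a monoacylglycerol acyltransferase, from 9.97 to 20.98 to 89.8 to 159 (3.01, SE 0.30, adjusted p = 3.74e-05).

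Among 49 genes of fatty acid oxidation and ketogenesis, Acsl5 rose by 0.75 (SE 0.14, adjusted p = 0.00418) and Cpt1a, the entry step of fatty acids into mitochondria, fell by 0.84 (lost in 5 of 8 fits, up to 0.193 without M10). These were the calls of that list, 1 higher (4.62% of all genes) and 1 lower (3.13% of all genes), and its median was -0.09.

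Of 37 genes of cholesterol synthesis and uptake, 3 were called higher (4.62% of all genes) and 5 lower (3.13% of all genes). Their median was -0.14. Those called lower numbered 2 without M10, 2 without M11, 3 without M2, M5 or M12, and 2 in a fit of the luciferase groups alone. The efflux transporter Abca1 rose from 3783 to 5220 to 7435 to 10161 (1.03, SE 0.18, adjusted p = 0.00326), and the sterol carrier Stard4 by 1.05 (SE 0.21, adjusted p = 0.00653). Insig1, which holds the SREBP escort in the endoplasmic reticulum, fell from 2015 to 3382 to 1308 to 1539 (-0.96, SE 0.17, adjusted p = 0.00346), and Hmgcs1 by 0.74 (SE 0.15, adjusted p = 0.00814).

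The gene for the enzyme that limits classical bile acid synthesis, Cyp7a1, measured 2842, 2246, 1213, 1655 and 3248 after water and 505, 552 and 269 after ethanol (-2.32, SE 0.32, adjusted p = 0.000512). It was the single call among 32 bile acid genes, against 7.75% of all genes. Cyp8b1, which acts after it to make cholic acid, measured 991 to 5363 after water and 6401 to 6918 after ethanol without passing (1.32, adjusted p = 0.13). The retinoic acid hydroxylase Cyp26a1 measured 70.7 to 229 after water and 885, 324 and 976 after ethanol (2.44, lost in 2 of 8 fits, up to 0.0853 without M10).

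**Figure D4:**
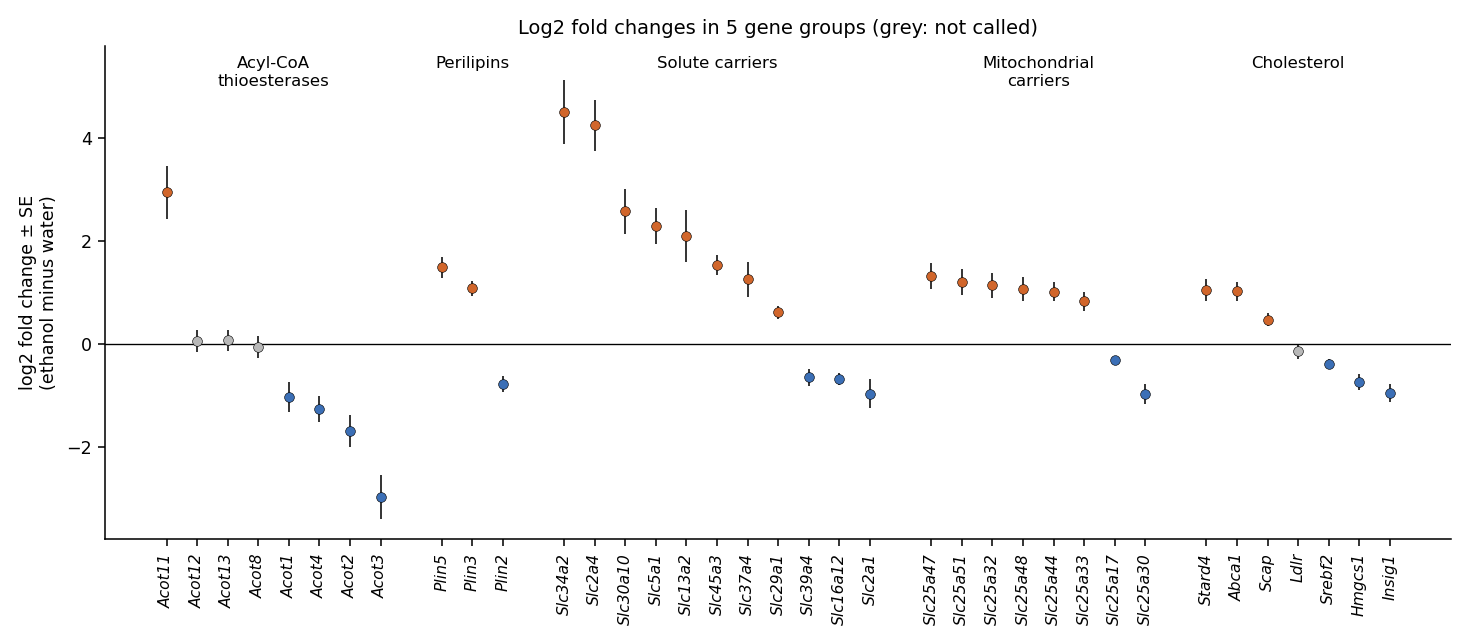
Points are log2 fold changes (ethanol minus water, on log2 of normalized count + 1) with limma's standard error as bars for acyl-CoA thioesterases, perilipins, solute carriers, mitochondrial carriers and cholesterol genes; orange was called higher, blue lower and grey not called. Acot11 at 2.95 and Acot3 at -2.98 sit at opposite ends of the thioesterases drawn, and Plin2 lies below 0 while Plin3 and Plin5 lie above.

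In carbohydrate metabolism outside the genes left aside, Pfkfb3, which makes the activator of phosphofructokinase, rose from 165 to 300 to 683 to 925 (1.79, SE 0.27, adjusted p = 0.00108). Ppp1r3c, which targets a phosphatase to glycogen, measured 479, 485, 454, 902 and 340 after water and 1340, 1563 and 2159 after ethanol (1.71, SE 0.23, adjusted p = 0.000507). Rpia, a pentose phosphate enzyme, rose by 1.54 (SE 0.23, adjusted p = 0.000898). Pygl (0.88) and Pgd (0.95) rose as well, lost in 4 and 2 of 8 fits. Pdp1, which activates pyruvate dehydrogenase, fell by 1.60 and its opposing kinase gene Pdk1 rose by 1.28, lost in 2 and 7 of 8 fits (up to 0.0696 without M11 and 0.188 without M10).

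The largest group of falls was in interferon-responsive genes. The guanylate-binding proteins (GBPs) and immunity-related GTPases (IRGs) are large GTPases that interferons induce and that attack vacuoles of pathogens. Of 18 tested, 12 were called lower (3.13% of all genes) and 0 higher, and the median log2 fold change was -1.84. All 18 had a log2 fold change below 0, and in 12 every ethanol library lay below every water library (6.39% of all genes). The count was 12 without M3, 13 without M4 and 8 without M10.

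Because these genes fell together and are known to carry interferon-responsive promoter elements, the 250 bases upstream of RefSeq transcript starts (GRCm38.p6) were searched for the interferon-stimulated response element, written TTTCNNTTTC or, on the other strand, GAAANNGAAA. Of the 18 tested members 11 had a promoter entry, and 10 of these held the motif (90.9%), against 2.98% of all 32851 windows and 3.28% of tested genes with an entry. It was found in 10.2% of the genes called lower and 1.72% of those called higher. Among 33 type I interferon-stimulated genes with an entry, 15 held it (45.5%). Of the called genes, it stood in 7 of 8 GTPases called lower (87.5%) and 7 of 17 interferon-stimulated genes called lower (41.2%). Capitals mark the matches in windows of GTPases that fell and of Cxcl10, each 5′ to 3′ on the strand of its gene. A match describes the sequence only.
Irgm1, chr11:48871421-48871670: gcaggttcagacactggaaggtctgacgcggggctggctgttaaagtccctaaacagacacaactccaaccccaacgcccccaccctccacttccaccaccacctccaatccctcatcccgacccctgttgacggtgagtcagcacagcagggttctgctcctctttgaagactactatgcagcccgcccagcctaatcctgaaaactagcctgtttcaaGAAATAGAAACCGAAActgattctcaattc
Igtp, chr11:58199306-58199555: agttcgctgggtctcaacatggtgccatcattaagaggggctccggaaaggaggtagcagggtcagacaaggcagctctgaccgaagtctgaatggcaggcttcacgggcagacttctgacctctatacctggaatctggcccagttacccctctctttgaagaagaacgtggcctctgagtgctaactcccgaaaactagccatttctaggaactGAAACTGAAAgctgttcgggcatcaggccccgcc
Irgm2, chr11:58214727-58214976: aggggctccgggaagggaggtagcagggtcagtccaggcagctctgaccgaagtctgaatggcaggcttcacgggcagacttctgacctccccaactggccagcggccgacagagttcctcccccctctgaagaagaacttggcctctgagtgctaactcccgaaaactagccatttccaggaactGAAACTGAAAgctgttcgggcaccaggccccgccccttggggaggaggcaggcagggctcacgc
Gbp3, chr3:142559794-142560043: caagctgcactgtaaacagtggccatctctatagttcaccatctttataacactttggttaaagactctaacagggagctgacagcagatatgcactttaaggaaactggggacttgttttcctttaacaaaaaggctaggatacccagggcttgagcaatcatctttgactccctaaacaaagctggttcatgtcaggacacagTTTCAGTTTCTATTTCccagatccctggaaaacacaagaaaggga
Gbp7, chr3:142530086-142530335: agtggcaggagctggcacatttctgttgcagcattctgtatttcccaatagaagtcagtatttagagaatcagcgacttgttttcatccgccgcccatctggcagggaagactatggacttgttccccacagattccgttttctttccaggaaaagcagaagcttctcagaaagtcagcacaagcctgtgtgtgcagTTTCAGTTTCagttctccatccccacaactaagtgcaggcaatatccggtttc
Cxcl10, chr5:92348890-92349139: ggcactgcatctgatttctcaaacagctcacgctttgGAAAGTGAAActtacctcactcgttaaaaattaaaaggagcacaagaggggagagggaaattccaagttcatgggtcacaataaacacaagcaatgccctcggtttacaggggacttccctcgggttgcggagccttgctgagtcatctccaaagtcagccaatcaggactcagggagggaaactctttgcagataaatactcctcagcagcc

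The first base of the match lies 30 and 24 bases before the transcript start in Irgm1 (overlapping matches), 34 in Igtp, 64 in Irgm2, 45 and 39 in Gbp3 (overlapping), 53 in Gbp7 and 213 in Cxcl10. The windows of Igtp and Irgm2, whose annotated spans overlap on chromosome 11, share a stretch of 55 identical bases. Ifi47 was the matched GTPase without the motif in this window. Annotated spans also overlap for Tgtp1 and Ifi47 with Olfr56 and for Cxcl10 with Art3, and whether the counting used strand is not given in the sources used here. The E-box CACGTG, which reads the same on both strands, stood in 14.2% of the genes called higher that had an entry, 8.36% of those called lower and 9.55% of all tested genes with an entry.

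Iigp1, an IRG and the most abundant gene of the group, measured 22705, 25224, 27217, 19160 and 20404 after water and 5553, 8408 and 8879 after ethanol. The highest ethanol library was below the lowest water library by more than 2-fold (-1.61, SE 0.19, adjusted p = 0.000161). Irgm1, a regulator of the other IRGs, measured 3691, 3859, 3942, 4139 and 3156 after water and 844, 1376 and 1702 after ethanol (-1.58, SE 0.20, adjusted p = 0.000309). Irgm2 measured 3122, 2498, 3751, 2648 and 3363 after water and 496, 823 and 1188 after ethanol (-1.95, SE 0.28, adjusted p = 0.000852). In each of the 3 genes M10 was the lowest library.

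Of the GBPs, Gbp10 measured 1397, 1616, 1644, 1569 and 973 after water and 226, 417 and 588 after ethanol (-1.89, SE 0.26, adjusted p = 0.000585). Gbp11, annotated as a polymorphic pseudogene, fell from 121 to 219 to 15.7 to 37.4 (-2.51, adjusted p = 0.000257), and Gbp3 from 514 to 1181 to 96.8 to 385 (-1.80, adjusted p = 0.00808). Tgtp1 measured 8286, 9695, 10946, 3826 and 5043 after water and 531, 1381 and 2453 after ethanol (-2.53, lost in 1 of 8 fits, 0.0716 without M10). Its near copy Tgtp2 fell by 2.05, and reads of the pair could be split by the counting, as could those of the GBPs. Ifi47 fell by 1.76 (SE 0.22, adjusted p = 0.000306).

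Igtp (-1.22, up to 0.109 without M10), Gbp7 (-1.69, up to 0.125 without M10) and Gvin1 (-2.01, 0.0859 without M10) fell with calls lost in 2, 2 and 1 of 8 fits. By position, 6 of 6 tested members on chromosome 11 were called lower (3.13% of all genes). On chromosomes 3, 5 and 7 the counts were 2 of 5, 2 of 5 and 1 of 1. Those on chromosome 11 include the near copies Tgtp1 and Tgtp2 and the overlapping spans of Igtp and Irgm2, so they are not independent measurements. Gbp2 measured 868 to 1666 in M1 to M3 but 293 and 682 in M4 and M5, with 180 to 481 after ethanol, and was not called (-1.46, adjusted p = 0.0715). Gbp6 reached 332 in M12 but was listed at 0 in the other ethanol libraries (168 to 384 after water), and it was not called (adjusted p = 0.169).

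Of 44 type I interferon-stimulated genes, 20 were called lower (3.13% of all genes) and 0 higher (4.62% of all genes). Their median was -0.90, and 43 had a log2 fold change below 0. These genes were uneven between the water libraries. Ifit1, an antiviral RNA-binding protein, measured 587, 429, 421, 3081 and 376 after water and 56.9, 129 and 199 after ethanol (-2.52, adjusted p = 0.0165, lost in 1 of 8 fits, 0.107 without M10). Rsad2, the antiviral enzyme viperin, measured 1171, 669, 1265, 4117 and 538 after water and 167, 331 and 489 after ethanol (-1.96, adjusted p = 0.0313, lost in 4 of 8 fits, up to 0.168 without M10). Isg15, a ubiquitin-like modifier, measured 412, 249, 396, 1602 and 223 after water and 70.2, 145 and 156 after ethanol (-1.87, lost in 5 of 8 fits, up to 0.176 without M10). In all 3 genes M4 was far above the other water libraries, and the remaining water libraries still lay above the ethanol libraries.

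The number of these genes called lower was 18 without M4, 13 without M3, 11 without M1, 8 without M11 and 3 without M10, and 6 in a fit of the luciferase groups alone. Parp14 (-1.39, SE 0.25, adjusted p = 0.00377), Stat2 (-0.89, SE 0.17, adjusted p = 0.00423) and Gm12250 (-2.21, SE 0.37, adjusted p = 0.00217) kept the call in all 8 fits. Stat2 encodes a signal transducer of type I interferon receptors and measured 1101, 952, 1296, 1601 and 1375 after water and 540, 798 and 708 after ethanol. Irf9, which joins it in a DNA-binding complex, fell by 0.82 (lost in 1 of 8 fits, 0.0724 without M10). Bst2 (-0.32, adjusted p = 0.532) and Irf7 (-0.64, adjusted p = 0.336) were not called.

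Cxcl10, a chemokine that draws T cells, measured 817, 604, 1228, 442 and 598 after water and 84.7, 92.1 and 233 after ethanol (-2.50, SE 0.40, adjusted p = 0.00168). Cd274, which encodes the checkpoint ligand PD-L1, measured 177, 178, 326, 161 and 180 after water and 37.5, 50.1 and 59.8 after ethanol (-2.01, SE 0.32, adjusted p = 0.00154). Irf1, the transcription factor that interferon gamma induces, measured 991, 970, 1359, 812 and 1046 after water and 442, 549 and 567 after ethanol (-0.98, SE 0.18, adjusted p = 0.00392). None of the 3 overlapped between groups. Over all genes tested, 6.39% had every ethanol library below every water library. All 3 were called lower in these libraries, so this separation is a description.

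Cxcl12, a chemokine of stromal and endothelial cells, fell by 1.15 (SE 0.20, adjusted p = 0.00268). Over the whole list of chemokines, cytokine signalling and checkpoint genes, 7 of 30 tested were called lower (4 without M10) and 1 higher. The shares over all genes were 3.13% and 4.62%, and the list median was -0.90. The one that rose was Tnfrsf1b, the TNF receptor 2 (1.04, SE 0.18, adjusted p = 0.00289). Socs2 and Cish, feedback inhibitors of growth hormone and cytokine signalling, fell by 1.73 (lost in 1 of 8 fits, 0.0914 without M10) and 1.51 (6 of 8, up to 0.137 without M12).

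Of 26 antigen presentation genes tested, 5 were called lower (3.13% of all genes) and 0 higher (4.62% of all genes), with a median of -0.51. The count called lower was 1 without M10, 2 without M1, M2 or M11, 3 without M3, and 1 in a fit of the luciferase groups alone. The peptide transporter Tap1 fell from 1556 to 1977 to 794 to 1412 (-0.86, SE 0.17, adjusted p = 0.00556), and Ciita, the switch of MHC class II genes, by 1.80 (lost in 5 of 8 fits, up to 0.158 without M10). The class I genes B2m (20412 to 37825 after water, 22670 to 32500 after ethanol, -0.07, adjusted p = 0.907) and H2-K1 (-0.07, adjusted p = 0.888) were not called. Of 33 Toll-like receptor and NF-kB genes, 1 was called higher (4.62% of all genes) and 2 lower (3.13% of all genes). Bcl3 rose (0.96, SE 0.15, adjusted p = 0.00107). Tlr2 and Tnfaip3 fell by 1.48 and 1.45, both lost in 6 of 8 fits and both at their highest in M3. Of 29 acute phase genes, 0 were called (7.75% of all genes).

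Markers of the cells that can carry these transcripts were read beside them. T and NK cell markers summed to 191 to 682 normalized counts after water, with the highest value in M3, and 145 to 213 after ethanol. Their median log2 fold change was -0.96 over 14 tested, 13 of them below 0 and 1 called lower (Nkg7, lost in 5 of 8 fits, up to 0.204 without M11). Kupffer cell and macrophage markers summed to 7125 to 11097 after water and 5801 to 7118 after ethanol. The highest ethanol sum lay only just below the lowest water sum, and the highest water sum was in M3. The median of these markers was -0.40, with 0 of 12 called. Liver endothelial markers had a median of -0.32, and neutrophil and stellate cell markers medians of 0.24 and 0.10, with 0 called in each. Without M3 the medians were -0.77 for T and NK cells and -0.31 for Kupffer cells. The part of these cells in the falls was not tested.

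**Figure D5:**
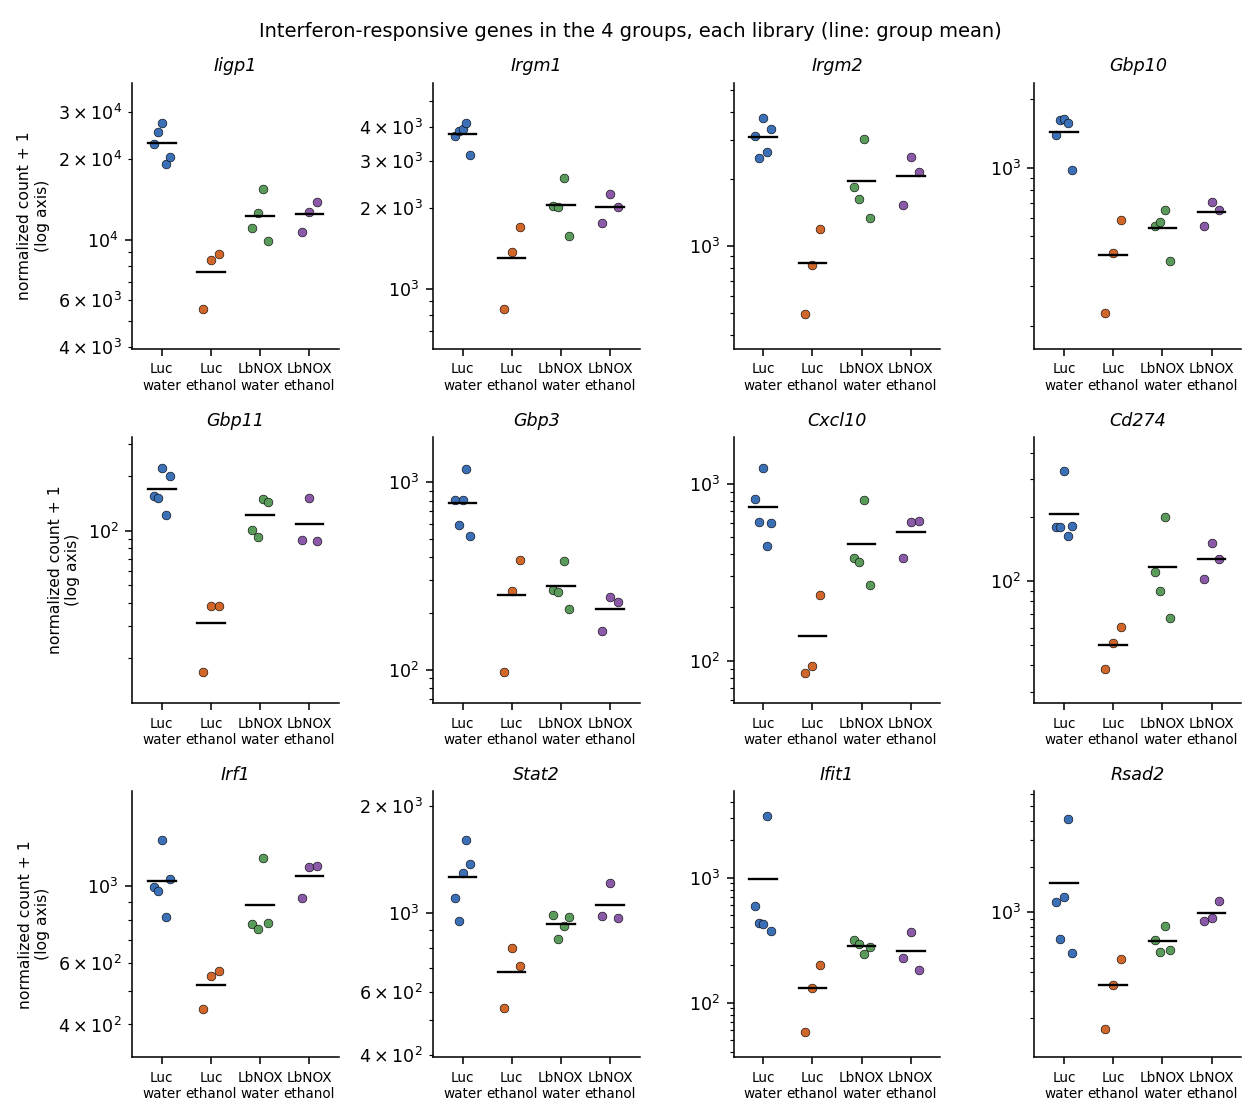
Normalized count + 1 (log axis) of 12 interferon-responsive genes in each library of the 4 groups: luciferase after water (blue, n = 5) and ethanol (orange, n = 3), and LbNOX after water (green, n = 4) and ethanol (purple, n = 3), with group means as lines. Luciferase libraries after ethanol lie below those after water in every panel, and for Iigp1 the LbNOX libraries of both gavages lie between them.

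In the LbNOX livers the GTPase values lay between those of the luciferase groups for Iigp1 after either gavage. Iigp1 averaged 22942 ± 3328 (SD, n = 5) and 7613 ± 1800 (n = 3) in the luciferase groups, and 12265 (n = 4) after water and 12458 (n = 3) after ethanol with LbNOX. The ethanol effect on Iigp1 in LbNOX livers was 0.03 on the log2 scale, and its difference from the luciferase effect was 1.64 (adjusted p = 0.00847). The GTPase list had a median of 0.21 for ethanol against water in LbNOX livers. Over all genes, the difference of the ethanol effect was called for 227 (1.67%), and 155 of the 627 genes called higher and 52 of the 425 called lower in luciferase livers were among them. Both comparisons have the luciferase libraries in common, so these shares follow in part from the selection. In LbNOX livers, which share no library with the luciferase groups, ethanol gave a median log2 fold change of 0.05 over the genes called higher and -0.12 over those called lower.

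Other falls were in some genes of proliferation and, with less stable calls, of protein folding. Of 40 cell cycle genes, 8 were called lower (3.13% of all genes) and 2 higher (4.62% of all genes), with a median of -0.56 and 37 below 0. E2f8, a repressor of the E2F program that hepatocytes use in polyploidization, measured 1331, 1342, 1058, 959 and 1003 after water and 266, 541 and 542 after ethanol (-1.40, SE 0.22, adjusted p = 0.00162). Cdc6, which licenses replication origins, fell from 37.5 to 100 to 15.2 to 27.4 (-1.62, adjusted p = 0.00524), and Cdc20 by 1.2 (adjusted p = 0.00885). Rrm2, the small subunit of ribonucleotide reductase, went the other way, from 2029 to 3645 to 4716 to 5800 (1.03, SE 0.20, adjusted p = 0.005). Mki67 was not called (-0.89, adjusted p = 0.0602). The list gave 4 lower without M1 or M2, 5 lower without M11, 5 lower and 1 higher without M3, 16 lower and 1 higher without M4, and 3 lower and 1 higher without M10.

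Of 28 heat shock and folding genes, 5 were called lower (3.13% of all genes) and 0 higher (4.62% of all genes), with a median of -0.22. Hspa8, the constitutive HSP70, measured 34720, 33727, 21068, 26385 and 26360 after water and 15480, 15457 and 15876 after ethanol (-0.84, SE 0.20, adjusted p = 0.019, lost in 3 of 8 fits, up to 0.079 without M10). Chordc1 (-0.74, lost in 1 of 8 fits, 0.0561 without M12) and Hsp90aa1 (-0.70, 6 of 8, up to 0.172 without M10) fell too. Without M12 no member of that list was called, without M10 or M11 1 was, and without M1 or M2 2 were. Of 32 genes of the unfolded protein response and ER chaperones, 2 were called higher (4.62% of all genes) and 3 lower (3.13% of all genes). The median of these 32 was -0.10. In the endoplasmic reticulum, Manf (-0.81, SE 0.15, adjusted p = 0.00415) and Pdia4 (-0.63, lost in 1 of 8 fits, 0.0511 without M12) fell while the dislocation proteins Derl1 (0.79, SE 0.11, adjusted p = 0.000758) and Derl2 (0.55, lost in 1 of 8 fits, 0.0994 without M10) rose; the chaperone BiP (Hspa5) was not called (-0.44, adjusted p = 0.0689).

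Of 32 iron and heme genes, 3 were called lower (3.13% of all genes) and 0 higher, with a median of -0.05; 1 was called without M10 or without M12. Tfrc, the transferrin receptor, measured 1876, 1678, 1302, 1383 and 1071 after water and 297, 510 and 654 after ethanol (-1.63, SE 0.30, adjusted p = 0.00423). Id3, which bone morphogenetic proteins induce, fell by 0.95 (lost in 2 of 8 fits, up to 0.0618 without M10), and the heme synthesis gene Cpox by 0.71 (lost in 2 of 8 fits, up to 0.142 without M10). The hepcidin gene Hamp was not called (0.67, adjusted p = 0.104). On a separate list, of 36 proteasome and ubiquitin genes, 5 were called lower (3.13% of all genes) and 0 higher, with a median of -0.17. Without M10 1 of that list was called lower. Its deubiquitinase gene Usp20 fell from 231 to 513 to 81.0 to 112 (-1.82, SE 0.37, adjusted p = 0.00724). Red blood cell markers had a median of -0.49, with 7 of 7 below 0 and 0 called, and summed to 11249 to 19106 after water and 8496 to 14214 after ethanol; their part in the fall of Tfrc was not tested.

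Lists tied most directly to ethanol and to respiration, and the list of ribosome biogenesis, held no call in the fit of all libraries. Of 21 genes of ethanol, acetaldehyde and acetate metabolism, 0 were called (7.75% of all genes), with a median of -0.08. At that share a list of this size would hold few calls. Without M3 the list had 1 member called lower and a median of -0.26. Adh1 measured 19662 to 35358 after water and 21533 to 26940 after ethanol (-0.16, SE 0.21, adjusted p = 0.745). Aldh2 (0.29, SE 0.18, adjusted p = 0.391) and Cyp2e1, the microsomal ethanol oxidase (0.24, SE 0.44, adjusted p = 0.82), overlapped between groups as well. Of 35 oxidative phosphorylation genes and 32 ribosome biogenesis genes, 0 were called, with medians of 0.03 and 0.05. A missed threshold does not show that these genes were equal.

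Large falls over 8-fold rest on genes listed at 0. Of 12 genes called lower by more than 8-fold, 11 were listed at 0 in at least 1 ethanol library, and 34 called genes were listed at 0 in a luciferase library. Msh3, a mismatch repair gene, measured 125, 73.6, 154, 130 and 22.99 after water and was listed at 0 in all 3 ethanol libraries and in 2 of the 3 LbNOX ethanol libraries. Nutf2-ps1 measured 145 to 434 after water and 211, 0 and 0 after ethanol, and Atf3, an ATF4 target, 46.4 to 134 after water and 0, 0 and 23.7 after ethanol. A listed 0 can be a failed estimate, so no fold is given for these 3 genes.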

How the data were processed

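Liver mRNA of 15 libraries was sequenced. Tools and build named in the submitters' processing notes, with no role given, are Salmon (version 1.5.1), DESeq2 (version 1.30.1) and mm10. The deposited table holds the authors' normalized counts, a signal in which each library's values are whole reads divided by 1 factor: 100% of 244950 values came out whole within 0.001. The header names groups and not replicates. The table lists 23 genes under date-like names. Genes with a value of 10 or more in at least 3 libraries were tested with limma 3.58.1 (R 4.3.3; trend and robust variances) on log2 (normalized count + 1) in 1 fit of 4 groups, with Benjamini-Hochberg adjusted p below 0.05 as a call. edgeR 4.0.16 (1049 calls) and DESeq2 1.42.0 ran on the recovered reads as alternatives. The limma script was tested on simulated data.

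Named genes are the 25 largest changes each way among calls whose higher group averaged at least 100, leaving out the ChREBP and lipogenic list, unnamed transcripts and date-like names, the 4 members of smallest p in each list with a call, other members of a list described, and the 10 genes of smallest p. The comparison and the lists were chosen with earlier results of these data known. Positions are from GENCODE vM21, which placed 15460 of 16330 genes by symbol, and promoter windows from RefSeq (GRCm38.p6). Results for some genes are not reported here.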

Additional observations from a re-analysis of the deposited data

Results flagged for a closer look

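In 26 of the 199 genes checked, 1 of the 5 water libraries lay far from the other 4. Chance gives this in about 1 of 20 groups if values are normal and genes independent. Genes of 1 response moved together here, such as Ifit1, Isg15 and Rsad2 in M4, so the count is not read as an excess. M1 stood apart as the highest library, in normalized counts, for Hspa5 (16112). M2 stood apart as the highest library, in normalized counts, for Cabp2 (107), Col9a3 (7.27) and Ncoa1 (743). M2 stood apart as the lowest library, in normalized counts, for Rpia (205). M3 stood apart as the highest library, in normalized counts, for Asns (227), Cd274 (326), Ifi47 (2109), Phgdh (147) and Tlr2 (282). M4 stood apart as the highest library, in normalized counts, for Acot1 (317), Aqp3 (30.5), Bst2 (5575), Fkbp5 (4448), Ifit1 (3081), Irf7 (4042), Isg15 (1602), Pdia4 (5017), Ppp1r3c (902), Rsad2 (4117), Slc34a2 (56.3) and Sorcs2 (16.4). M4 stood apart as the lowest library, in normalized counts, for Cdc20 (494). M5 stood apart as the highest library, in normalized counts, for Gadd45a (186) and Socs2 (308), and as the lowest for Nqo1 (491).

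The ethanol effect differed between constructs, with an adjusted p below 0.05 in limma, for 61 of these genes, against 1.67% of all genes tested. Most were chosen for their ethanol effect in luciferase livers. Adcy10, Col9a3, Sorcs2, Nfe2l3 and Wisp2 were tested only because they were high in the luciferase ethanol libraries. Their values below 0 follow in part from that filter. The values are the LbNOX effect minus the luciferase effect on the log2 scale. It was below 0, a smaller rise or a fall with LbNOX, for Adcy10 (-7.27), Adora1 (-1.17), Ank (-1.98), Bckdk (-1.03), Bcl3 (-1.40), Cdcp1 (-1.63), Col9a2 (-4.62), Col9a3 (-6.49), Derl1 (-0.84), Derl2 (-0.84), Fgf21 (-2.23), Fgfrl1 (-1.88), Frmd8 (-2.35) and Gadd45a (-1.86). The same sign was found for Hhipl1 (-4.42), Hlf (-1.58), Hormad2 (-3.90), Kcnab3 (-2.95), Maff (-2.38), Myh8 (-4.52), Ncoa1 (-2.06), Nfe2l3 (-5.31), Noxo1 (-4.82), Nrg4 (-1.27), Nudt4 (-1.12), Plcxd1 (-3.33), Plin5 (-1.33), Pparg (-1.35), Rasl10b (-2.68), Rpia (-2.004) and Rrm2 (-1.32). Values below 0 were also measured for Slc20a2 (-0.58), Slc25a47 (-1.79), Slc2a4 (-3.52), Slc5a1 (-2.26), Sorcs2 (-5.59), Stard4 (-1.32), Tars (-1.11), Tbc1d31 (-2.39), Tha1 (-3.44), Trib3 (-2.09), Ulk1 (-1.90), Wisp2 (-5.57) and Xirp1 (-3.38). It was above 0, for genes that fell in luciferase livers, for Cd274 (2.23), Cxcl10 (2.82), Cyp7a1 (2.49), Fas (1.01), Gbp10 (2.14), Gbp11 (2.34), Gm12250 (2.60), Ifi47 (1.54), Iigp1 (1.64), Irf1 (1.29), Irgm1 (1.56), Irgm2 (2.07), Parp14 (1.57), Stat2 (1.06), Tgtp1 (3.34), Tgtp2 (3.12) and Usp20 (2.65).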

How the results depend on the processing

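Of 1052 calls (627 higher, 425 lower), a fit of the luciferase groups alone gave 611 (416 higher, 195 lower), and DESeq2 on recovered reads gave 1620 (745 lower); the cause was not tested. Leaving out 1 luciferase library gave 467 to 1216 calls, 311 to 678 higher and 156 to 538 lower, with the fewest without M10 and the most without M4. Without M12 there were 636 (380 higher, 256 lower), and without M11 the genes called lower numbered 268. The other alternatives, in scaling, filter, pseudocount and variance trend, edgeR, genes with dropout removed, and without M3 and M8, gave 962 to 1121 calls. Of 165 called genes among the 209 chosen by the naming rule, 103 kept the call in every one of the 21 alternatives that tested them. A gene that an alternative's filter removed was not counted as lost there, as for Rsph4a with the filter at 50. None of the 209 reversed where tested. Zeros in the report for a list stand beside 2859 genes with an unadjusted p under 0.05. No paired analysis was possible because the columns carry no replicate number. With 3 ethanol libraries, small changes are poorly resolved.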

Other observations

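Further genes that rose from low levels include Plcxd1, a phospholipase-domain protein, which measured 47.4, 35.4, 24.1, 52.8 and 38.0 normalized counts after water and 713, 292 and 469 after ethanol (log2 fold change 3.56, SE 0.34, adjusted p = 3.45e-05). Its annotated span overlaps that of Gtpbp6, and reads in the shared part cannot be assigned with certainty. Rasl10b, a small GTPase, rose from 11.99 to 51.6 to 142 to 289 (3.01, adjusted p = 0.000512). Hhipl1 rose from 9.14 to 45.7 to 138 to 345 (3.16, adjusted p = 0.0014). The radial spoke gene Rsph4a, whose product belongs to motile cilia, rose from 4.69 to 14.99 to 47.8 to 72.3 (2.66, adjusted p = 0.0016). Of 18 cilia genes tested 3 were called higher (4.62% of all genes), while the median of the list was -0.18, so the list as a whole did not lie above 0.

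Fas, the death receptor gene, measured 414, 423, 431, 535 and 515 after water and 226, 318 and 263 after ethanol. It fell by 0.79 (SE 0.15, adjusted p = 0.00405), and the groups did not overlap. Targets of NRF2, the regulator of antioxidant genes, had a median of -0.24 over 40 tested. Of these, 1 was called higher (4.62% of all genes) and 1 lower (3.13% of all genes). Gclc, which starts glutathione synthesis, measured 5769 to 15778 after water and 3655 to 7963 after ethanol and was not called (-0.92, adjusted p = 0.0824). Nqo1 was not called either (-0.66, adjusted p = 0.213).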
